A study of Mus musculus with 2 samples.

Results

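G2/M DETCs are the dendritic epidermal T cells (DETCs) of this series whose RNA held several transcripts of genes that act late in the cell cycle. DETCs were taken as cells with at least 3 UMIs (unique molecular identifiers, each standing for 1 captured RNA molecule) of Trdc, the constant chain of the γδ T cell receptor (TCR), at least 3 UMIs of Cd3d, Cd3e and Cd3g together, and 0 UMIs of Trac, Cd4, Cd8a and Cd8b1. Among them, G2/M DETCs held at least 4 UMIs in all of 6 genes, Ube2c, Birc5, Nusap1, Ccnb2, Cenpf and Cdca8, called the rule genes here. They were 258 of 9088 DETCs and of 11134 cells in 2 libraries, 137 of 3856 DETCs after isotype antibody and 121 of 5232 DETCs after anti-Skint1 antibody. They are compared with rule-negative DETCs, which held 0 UMIs of the 6 genes and numbered 3504 and 4847 in the isotype and anti-Skint1 libraries.

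Both libraries held live CD45+EpCAM-MHC-II- cells sorted from the ear epidermis of wild-type female FVB/NJ mice aged 8 weeks, 7 days after an antibody was injected into the skin. One library was made after injection of an isotype control antibody and the other after injection of an antibody to Skint1, a keratinocyte protein on which the development of DETCs depends. No other allele or agent is given in the labels. By the study's convention that n counts mice, each library stands for a single mouse. With 1 library per treatment, treatment and library cannot be told apart, no test between treatments was possible, and no p-value is given. Intervals are 95% intervals of counting error only, exact for levels, ratios and shares. Those of levels and ratios contain no spread between cells, and no interval contains a spread between mice.

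DETCs are γδ T cells with an almost uniform TCR that seed the mouse epidermis before birth and then persist by dividing in place. A dividing cell copies its DNA in S phase, checks it in G2 and separates its chromosomes in mitosis (M), where cyclin B and the kinase CDK1 drive entry and the anaphase-promoting complex drives exit by marking cyclins for destruction. Many transcripts of this late programme accumulate from late S phase through G2 and peak in mitosis, so that they are used as markers of cycling cells.

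The cells met the gate for DETCs, which did not exclude other γδ T cells. Trdc stood at 4139.5 CPM (UMIs of the gene per 1000000 UMIs of the group, 95% interval 4028 to 4254) in isotype G2/M DETCs and at 4578 CPM in isotype rule-negative DETCs. It stood at 3434 CPM (3326 to 3545) in G2/M DETCs and 3782 CPM in rule-negative DETCs of the anti-Skint1 library. Cd3g, a signalling chain of the TCR complex, stood at 7218 and 7263 CPM in G2/M DETCs against 9685 and 9854 CPM in rule-negative DETCs. Trdc and Cd3g took part in the gate that chose all DETCs, so that their presence is no finding. Of 7 αβ T cell markers, Trbc1 and Trbc2 had UMIs in G2/M DETCs, at a summed 2037 and 1938 CPM against 2550.1 and 2225 CPM in rule-negative DETCs. Trac, Cd4, Cd8a and Cd8b1 were at 0 by the gate and Foxp3 was at 0 in G2/M DETCs of both libraries. Markers of natural killer and innate lymphoid cells held 4 UMIs in each library, with Ncr1 and Il1rl1 at 0, and the 4 mast cell markers held none. Markers of dermal γδ T cells held 22 and 34 UMIs, 17.5 and 30.8 CPM against 25.1 and 21.0 CPM in rule-negative DETCs. The cell with most of these UMIs held 11 in the isotype and 23 in the anti-Skint1 library.

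The markers do not place each cell in G2 or mitosis, since a gene of low level gives 0 UMIs in many cells that express it. Mki67, the proliferation marker, had a UMI in 92.0% of isotype and 89.3% of anti-Skint1 G2/M DETCs. Birc5 (survivin) had a UMI in 90.5% and 87.6%, Cenpf (a centromere protein) in 87.6% and 88.4%, Ccnb2 (cyclin B2) in 82.5% and 72.7%, and Ube2c (the ubiquitin-conjugating enzyme of the anaphase-promoting complex) in 73.7% and 67.8%. These are the markers named for the cells, and 4 of them are rule genes. Ccnb1 (cyclin B1), which peaks at entry to mitosis, had a UMI in 38.7% and 32.2% of the same cells, and Plk1 (polo-like kinase) in 32.1% and 25.6%. At least 3 UMIs of 38 DNA replication genes were found in 94.9% (89.8 to 97.9%) and 95.9% (90.6 to 98.6%) of them. Replication UMIs were also found in rule-negative DETCs, as given with the replication genes. The name G2/M DETCs is kept here for the rule, not as a stage shown for each cell.

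The cells were selected on the UMIs of the 6 rule genes, so that the values of these genes are a description. Their sum per G2/M DETC ran from 4 to 135 UMIs with a median of 24.0 in the isotype library and from 4 to 136 with a median of 21.0 in the anti-Skint1 library. All 6 genes had a UMI in 76 of 137 and 61 of 121 cells, and 1 gene alone met the rule in 5 and 8 cells. Just inside the threshold, 7 and 10 cells held a sum of 4, and just outside it 16 and 13 cells held a sum of 3. The summed CPM of each rule gene in isotype and anti-Skint1 G2/M DETCs was 1045 and 875 for Cenpf, 787 and 618 for Ube2c, 666 and 611 for Birc5, 529.7 and 526 for Nusap1 (a spindle protein), 425 and 387 for Ccnb2, and 401 and 386 for Cdca8 (borealin, which with Birc5 and Aurora B kinase forms the chromosomal passenger complex). Each was at 0 in rule-negative DETCs by construction. In mouse build GRCm38, Ube2c lies at chr2:164769898-164778822, Birc5 at chr11:117849251-117855743, Nusap1 at chr2:119618298-119651244, Ccnb2 at chr9:70407692-70421547, Cenpf at chr1:189640606-189688086 and Cdca8 at chr4:124918465-124939311.

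**Figure D1:**
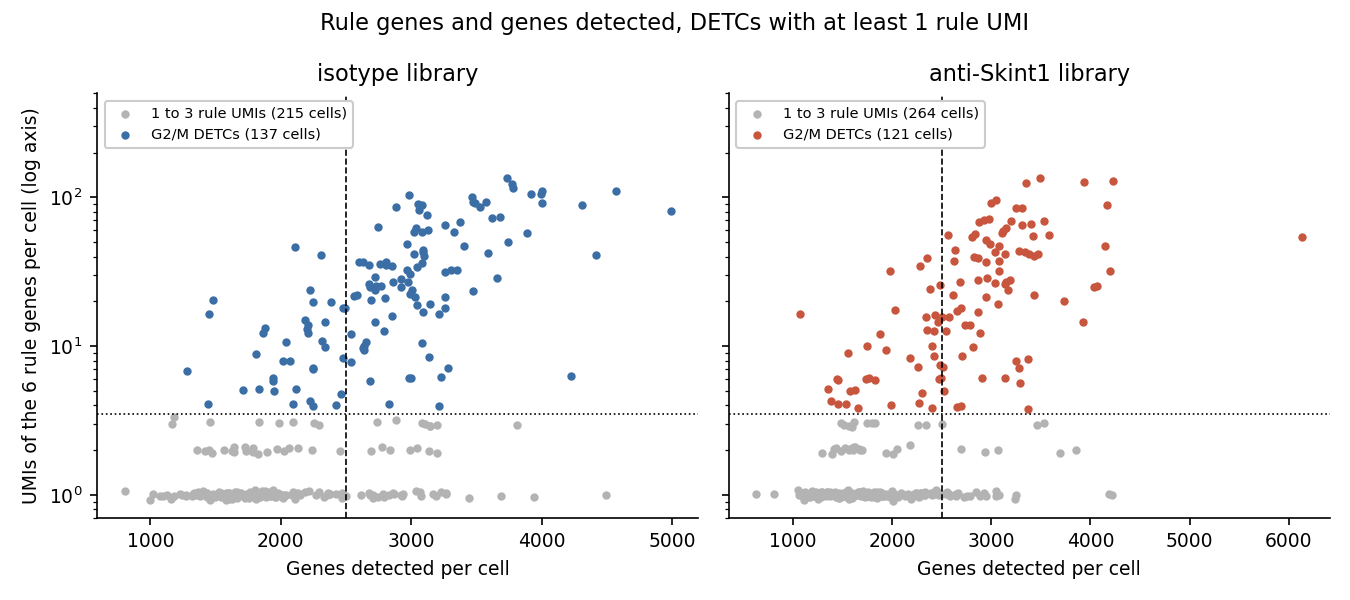
UMIs of the 6 rule genes per cell (log axis, with a small vertical jitter) against genes detected per cell, for DETCs with at least 1 rule UMI in each library; coloured points are the 137 and 121 G2/M DETCs, the dotted line is the rule and the dashed line marks 2500 genes. Most coloured points lie right of the dashed line, 99 of 137 and 82 of 121.

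G2/M DETCs held more RNA than other DETCs, and most of them lie above the limit of 2500 genes per cell that the study's methods set. Their median depth was 8871 UMIs (range 2389 to 24311) in the isotype and 8749 UMIs (2200 to 40924) in the anti-Skint1 library, against 4061 and 3596 UMIs in rule-negative DETCs. Per cell, their mean UMIs were 2.10-fold and 2.32-fold those of rule-negative DETCs. They held a median of 2883 and 2867 genes, and 99 of 137 cells (72.3%) and 82 of 121 cells (67.8%) held more than 2500 genes, as did 4.91% and 3.61% of rule-negative DETCs. DETCs with 1 to 3 rule UMIs had median depths of 4829 and 4218 UMIs, and 19.1% and 11.4% of them held more than 2500 genes. When each cell was thinned to 2000 UMIs, G2/M DETCs kept 1080.0 and 1057 genes at the median against 996.0 and 982.0 in rule-negative DETCs. Their median mitochondrial share was 4.54% and 4.73%, against 5.43% and 5.60%. Doublets, 2 cells in 1 droplet, also carry more RNA, and no doublet caller was run. No G2/M DETC barcode was found among the cells of the other library, while 8 other cell barcodes occurred in both.

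Few G2/M DETCs carried the RNA of other epidermal cells. Cells with at least 10 UMIs of 13 keratinocyte, Langerhans cell and myeloid markers were 2 of 137 (1.46%) and 2 of 121 (1.65%), against 0.314% and 0.248% of rule-negative DETCs. The keratinocyte list summed to 451 and 998 CPM in G2/M DETCs and to 128 and 149.8 CPM in rule-negative DETCs. One G2/M DETC of each library held 554 of 567 and 988 of 1103 of these UMIs. The list of Langerhans cell and myeloid markers summed to 30.2 and 414 CPM in G2/M DETCs and to 25.9 and 33.3 CPM in rule-negative DETCs, and 1 anti-Skint1 cell held 453 of 457 of its UMIs. Results that rest on such cells are given below with and without them.

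G2/M DETCs were a smaller share of DETCs in the anti-Skint1 library. They were 3.55% (2.99 to 4.19%) of isotype DETCs and 2.31% (1.92 to 2.76%) of anti-Skint1 DETCs, a difference of -1.24 percentage points with a 95% Newcombe interval of -1.97 to -0.542. When cells were thinned to 2000 UMIs and at least 2 rule UMIs were asked for, the shares were 3.44% and 2.09% and the difference was -1.35 points (-2.08 to -0.660). Among DETCs with more than 2500 genes, G2/M DETCs were 31.7% and 28.6%, which differed by -3.16 points (-10.4 to 4.20). Among DETCs with at most 2500 genes the shares were 1.07% and 0.789%, and the difference was -0.284 (-0.732 to 0.125) in percentage points. Both of these last intervals hold 0, and DETCs above 2500 genes were themselves 8.09% of isotype and 5.49% of anti-Skint1 DETCs. Outside the DETC gate, 40 of 853 and 42 of 1193 cells held at least 4 rule UMIs.

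For the comparison across all genes, genes were kept where their CPM averaged at least 20 over both kinds of DETC in both libraries. At least 2-fold higher in G2/M DETCs were 517 of 5759 such genes (8.98%) in the isotype and 514 (8.93%) in the anti-Skint1 library, and 433 of them were shared, 83.8% and 84.2% of each set. At least 2-fold lower were 238 (4.13%) and 237 (4.12%), and 120 were shared, 50.4% and 50.6% of each set. Because the rule used genes of this same contrast, a count of genes here describes the cells that the rule took and supports nothing further. The median log2 ratio over all kept genes was 0.06 and 0.05.

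Genes of mitosis other than the rule genes were higher in G2/M DETCs of both libraries with few exceptions. Of 98 genes in 7 lists, 92 were kept and 90 were at least 2-fold higher in each library, with a median log2 ratio of 5.09 and 4.65. The rule took cells by genes of the same programme, and a gene near 0 in rule-negative DETCs passed the minimum level only through its level in G2/M DETCs, so that this count was largely set in advance and supports nothing. In rule-negative DETCs the 11 mitotic kinases together summed to 28.1 and 28.9 CPM. The remaining pair were Wee1, the kinase that holds CDK1 inactive before mitosis, and Cbx1, a heterochromatin protein. Wee1 had log2 ratios of 0.91 (0.52 to 1.29) and 0.64 (0.20 to 1.06), and Cbx1 of 0.75 (0.55 to 0.94) and 0.70 (0.49 to 0.89). Ccnf, Cdc25c, Dsn1, Espl1, Kif18b and Psrc1 fell under the minimum level and were not counted.

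Among the cyclins and the kinase that they activate, levels in rule-negative DETCs were close to 0. Cdk1 stood at 291 CPM (262 to 322) in isotype and 241 CPM (213 to 271) in anti-Skint1 G2/M DETCs, against 2.03 and 1.83 CPM in rule-negative DETCs, log2 ratios of 7.16 and 7.04. Ccna2 (cyclin A2, of S phase and G2) stood at 229 and 186 CPM against 0.916 and 0.681 CPM. Ccnb1 stood at 122 CPM (104 to 143) and 71.5 CPM (56.6 to 89.1) against 0.785 and 0.786 CPM. Over these 3 genes the G2/M level was 91.0-fold to 274-fold the rule-negative level. Cks2, a small partner of CDK1, stood at 432 and 390.1 CPM against 41.2 and 37.9 CPM, log2 ratios of 3.39 and 3.36. It thus had a clear level in rule-negative DETCs too, which set it apart from the cyclins.

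All 11 mitotic kinases were at least 2-fold higher in both libraries, with medians of 7.40 and 6.57 on the log2 scale. Aurkb, the Aurora kinase of the chromosomal passenger complex, stood at 155 and 130.3 CPM against 0.785 and 0.733 CPM. Plk1 stood at 55.7 CPM (43.4 to 70.3) and 39.8 CPM (28.9 to 53.5) against 0.196 and 0.419 CPM, log2 ratios of 8.15 (6.54 to 10.46) and 6.57 (5.47 to 7.87). Aurka stood at 70.8 and 56.1 CPM against 0.982 and 1.31 CPM, log2 ratios of 6.17 and 5.42. The width of the Plk1 intervals reflects the few UMIs of this gene in rule-negative DETCs.

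Genes of anaphase and of the spindle checkpoint were higher in 7 of 7 kept members. Cdc20, which activates the anaphase-promoting complex, stood at 316 CPM (285 to 348) and 253 CPM (224 to 284) against 3.66 and 3.72 CPM. Pttg1 (securin, the inhibitor that is destroyed to let sister chromatids part) stood at 297 and 284 CPM against 33.5 and 32.8 CPM. Ube2s, which extends ubiquitin chains made by Ube2c, stood at 801 and 774 CPM against 141 and 139 CPM. The log2 ratios were 6.43 and 6.09 for Cdc20, 3.15 and 3.11 for Pttg1, and 2.51 and 2.48 for Ube2s, so that members of a single complex's pathway differed widely in their rule-negative level.

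Centromere, spindle and cytokinesis genes were higher in 17 of 17, 17 of 17 and 9 of 9 kept members in each library. Cenpa, the histone H3 variant that marks centromeres, stood at 482 and 416 CPM against 134 and 106 CPM, and Cenpe, a kinetochore motor, at 194 and 165 CPM against 1.90 and 1.68 CPM. The log2 ratios were 1.84 and 1.98 for Cenpa and 6.68 and 6.62 for Cenpe. Tpx2, a spindle assembly factor that activates Aurora A, stood at 307 and 289 CPM against 3.27 and 3.04 CPM. The kinesin Kif11, which pushes spindle poles apart, stood at 177 and 137 CPM against 0.851 and 0.943 CPM. Prc1, which bundles the microtubules of the midzone, stood at 672 and 595 CPM against 18.3 and 19.8 CPM. Among tubulin genes and regulators, Tubb5 stood at 3087 and 2976 CPM against 282 and 288 CPM, and Stmn1 (stathmin, a microtubule destabilizer) at 2466 and 2399 CPM against 37.5 and 41.1 CPM.

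Chromosome and chromatin genes were higher in 21 of 22 members, Cbx1 being the exception. Mki67 stood at 859 CPM (808 to 912) and 806 CPM (754 to 861) against 6.61 and 6.49 CPM, log2 ratios of 7.02 (6.73 to 7.33) and 6.96 (6.68 to 7.24). Top2a, the topoisomerase that untangles sister chromatids, stood at 1325 and 1126 CPM against 16.8 and 19.1 CPM. Hmgb2, an abundant chromatin protein of dividing cells, stood at 5098 and 4859 CPM against 537 and 518 CPM. The condensin subunits Smc2 and Smc4 had log2 ratios of 4.12 and 4.18, and of 3.16 and 2.87.

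**Figure D2:**
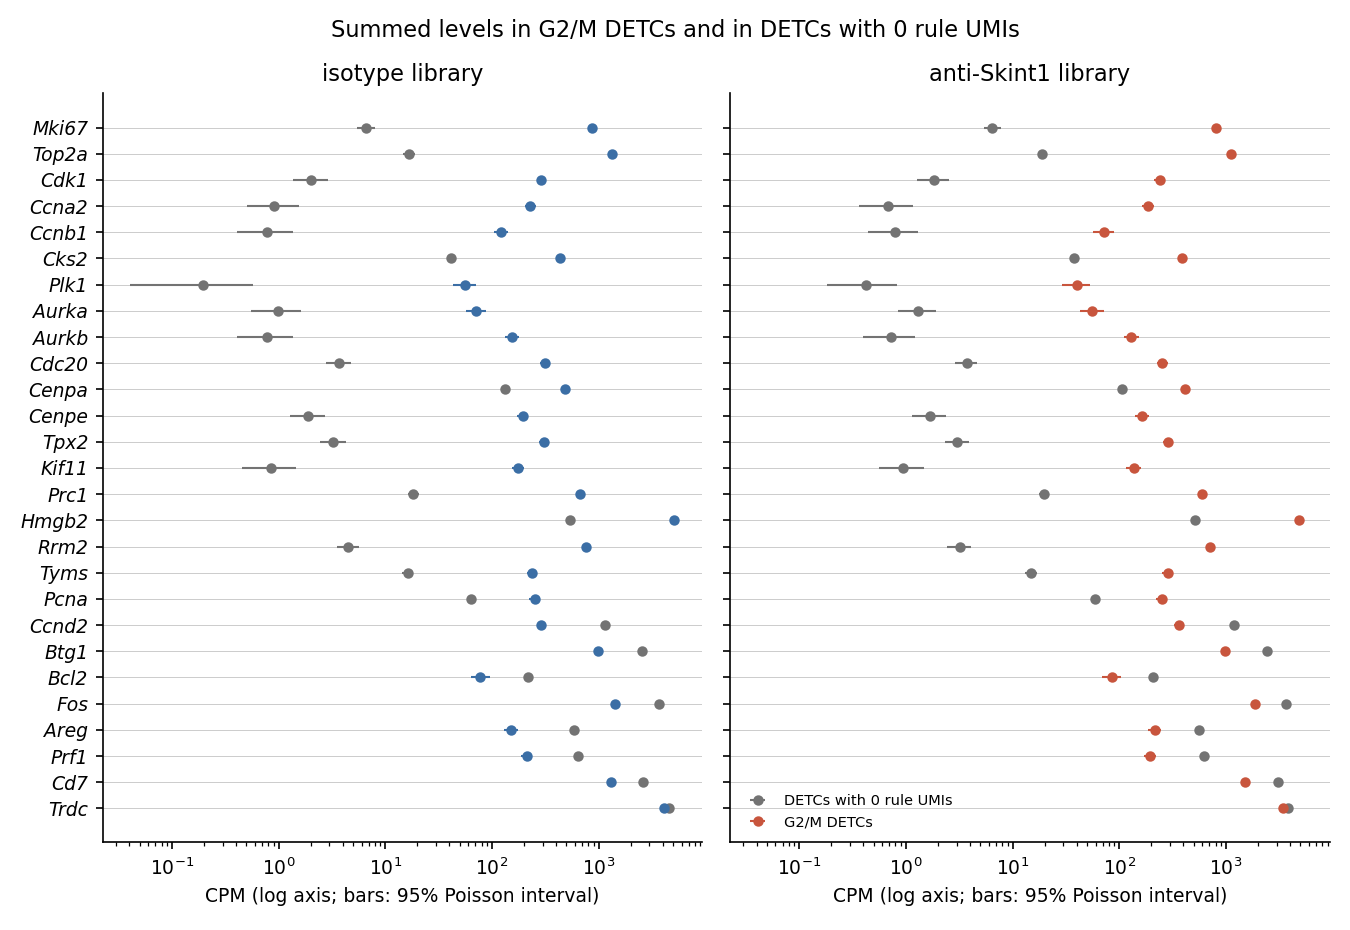
Summed CPM (log axis) of 27 genes in G2/M DETCs (coloured) and rule-negative DETCs (grey) of each library, with 95% Poisson intervals. From Mki67 to Pcna the coloured point lies right of the grey one in both libraries, from Ccnd2 to Cd7 it lies left, and at Trdc the points nearly meet.

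Shares of cells with a UMI were set against rule-negative DETCs, whose UMIs of these genes include any free RNA of the droplets. At 2000 UMIs per cell, Mki67 had a UMI in 63.5% and 67.8% of G2/M DETCs and in 1.19% and 0.839% of rule-negative DETCs. Top2a had one in 75.2% and 73.6% against 2.40% and 3.10%, and Cdk1 in 39.4% and 30.6% against 0.326% and 0.280%. Ccnb1 had one in 14.6% and 12.4% of G2/M DETCs, so that at this depth most of them held none of its UMIs, and in 0.178% and 0.108% of rule-negative DETCs. Cenpa had one in 44.5% and 43.8% against 19.1% and 15.8%, the highest rule-negative shares among these 5 genes.

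The transcription factors that drive this programme were found as well, at low levels. The MuvB complex, with B-Myb or FOXM1, is known to bind late cell cycle promoters, and E2F factors those of replication genes. Foxm1 stood at 62.0 CPM (49.0 to 77.4) and 48.9 CPM (36.7 to 63.8) against 1.31 and 0.628 CPM in rule-negative DETCs, and the repressor E2f8 at 46.9 and 45.3 CPM against 0.524 and 0.576 CPM. E2f1 had log2 ratios of 1.52 and 1.98. Of 8 kept factors 6 were at least 2-fold higher in each library. Lin54, the DNA-binding subunit of MuvB, and E2f4 were not, with log2 ratios of -0.08 (-0.34 to 0.17) and 0.11 (-0.17 to 0.38) for Lin54 and of -0.20 (-0.81 to 0.35) and -0.58 (-1.32 to 0.08) for E2f4.

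Promoters of some of these genes are shown as a description, since the joint rise of the programme in G2/M DETCs was largely set by the rule. NF-Y, a factor known from many late cell cycle promoters, binds CCAAT, and MuvB binds the cell cycle homology region, whose core is TTTGAA or TTTAAA. The 4 windows of 150 bases before the RefSeq start of the gene (GRCm38.p6) are printed 5′ to 3′ on the strand of the gene, with CCAAT, its reverse complement ATTGG and TTTGAA in capitals. They lie at chr9:70421555-70421704 (minus strand) for Ccnb2, chr1:189688087-189688236 (minus) for Cenpf, chr2:164769748-164769897 (plus) for Ube2c and chr10:69352939-69353088 (minus) for Cdk1. Those of Ccnb2 and Cenpf end at the base before the start, that of Ube2c ends 32 bases and that of Cdk1 27 bases before it.
Ccnb2: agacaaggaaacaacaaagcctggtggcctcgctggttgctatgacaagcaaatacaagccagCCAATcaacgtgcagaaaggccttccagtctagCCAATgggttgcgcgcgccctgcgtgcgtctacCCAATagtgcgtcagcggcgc
Cenpf: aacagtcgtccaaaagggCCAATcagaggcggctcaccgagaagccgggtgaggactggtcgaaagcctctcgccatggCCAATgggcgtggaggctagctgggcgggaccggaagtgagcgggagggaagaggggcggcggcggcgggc
Ube2c: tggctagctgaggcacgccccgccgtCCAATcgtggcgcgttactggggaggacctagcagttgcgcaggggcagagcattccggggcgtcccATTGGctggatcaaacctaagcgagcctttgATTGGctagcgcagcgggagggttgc
Cdk1: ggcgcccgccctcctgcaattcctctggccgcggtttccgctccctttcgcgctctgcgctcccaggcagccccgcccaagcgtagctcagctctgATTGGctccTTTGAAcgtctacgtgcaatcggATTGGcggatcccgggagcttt
In Ccnb2 the 3 CCAAT boxes begin 87, 54 and 21 bases before the start.

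The motifs were also counted over the promoters of the whole lists. Of 98 genes in the mitotic lists 80 had a promoter in the RefSeq table. In the 250 bases before the start, on both strands, 56 of the 80 (70.0%) held CCAAT, against 34.5% of 27025 promoters in the table, and 34 (42.5%) held it 2 times or more, against 10.5%. Of the cores, TTTGAA was found in 28 of the 80 against 16.3%, TTTAAA in 9 (11.2%) against 12.1%, and either in 34 (42.5%) against 25.5%. Over the promoters of 4580 genes kept in the comparison of levels, 37.4% held the NF-Y motif, 685 held it 2 times or more, and 17.0% held either core of the homology region. TTTAAA reads the same on both strands, and no motif contains another. Of the 6 rule genes, 4 held CCAAT, 4 held TTTGAA or TTTAAA, and Nusap1 held neither. Among 31 of 38 replication genes, 18 (58.1%) held CCAAT and 6 (19.4%) TTTGAA or TTTAAA. A match of letters is a description and shows no bound factor.

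Replication genes were higher in G2/M DETCs, by less than the mitotic genes in the median. Of 31 kept genes of 38, 28 in the isotype and 29 in the anti-Skint1 library were at least 2-fold higher, with medians of 2.14 and 2.12 on the log2 scale. Rrm2, the regulated subunit of the enzyme that makes deoxynucleotides, stood at 756 CPM (709 to 806) and 708 CPM (659 to 759) against 4.52 and 3.19 CPM. Tyms (thymidylate synthase) stood at 237 and 284 CPM against 16.2 and 14.9 CPM, and Pcna, the sliding clamp of DNA polymerase, at 251 and 251 CPM against 63.5 and 59.3 CPM. Mcm5, of the replicative helicase, stood at 67.6 and 63.4 CPM against 12.4 and 10.5 CPM, log2 ratios of 2.44 and 2.60. Against rule-negative DETCs of like depth, fewer passed, 24 and 18 of 34 kept replication genes, and Mcm5 had 1.04 and 0.99. At 2000 UMIs per cell, at least 3 replication UMIs were found in 75.2% and 81.0% of G2/M DETCs, in 34.6% and 30.5% of DETCs with 1 to 3 rule UMIs, and in 22.2% and 22.3% of rule-negative DETCs.

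DETCs with replication transcripts but no rule UMI give another reference. They held 0 rule UMIs and at least 6 UMIs of the replication list without Pcna, Dut, Slbp, Dnmt1 and Ung. They numbered 284 and 354, with median depths of 6692 and 6427 UMIs. Of these cells 29.2% and 26.6% held more than 2500 genes. Mcm5 had log2 ratios of 0.16 (-0.26 to 0.57) and 0.23 (-0.21 to 0.66) in G2/M DETCs over these cells, and E2f1 lay lower, at -0.76 and -0.35. Mki67 had log2 ratios of 5.12 (4.70 to 5.56) and 5.15 (4.76 to 5.58), Cdk1 of 4.65 and 4.77, and Rrm2 of 5.12 and 5.97. The summed replication list, most genes of which chose the reference, was 0.82 and 0.84 higher on the log2 scale in G2/M DETCs, and the mitotic kinases 4.62 (4.30 to 4.96) and 4.44 (4.14 to 4.75). Mcm5 and Rrm2 belong to the list on which these reference cells were chosen, so that their ratios are partly set by that choice.

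Histone genes split into those with high and those with low levels. Replication-dependent histone mRNAs mostly lack a poly(A) tail, so that capture by poly(A), as used here, sees a part of them only. Of 24 kept histone genes, core and linker, 17 and 14 were at least 2-fold higher, and 2 and 4 were at least 2-fold lower. The linker histone gene Hist1h1b stood at 347 and 367 CPM against 1.51 and 1.05 CPM in rule-negative DETCs, and Hist1h2ae at 1053 and 846 CPM against 122 and 114 CPM. Hist1h2bc was lower, with 334 CPM (303 to 368) and 337 CPM (303 to 373) against 983 and 922 CPM, log2 ratios of -1.56 and -1.45. Histone genes of a cluster are near copies, and reads may be split between them.

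**Figure D3:**
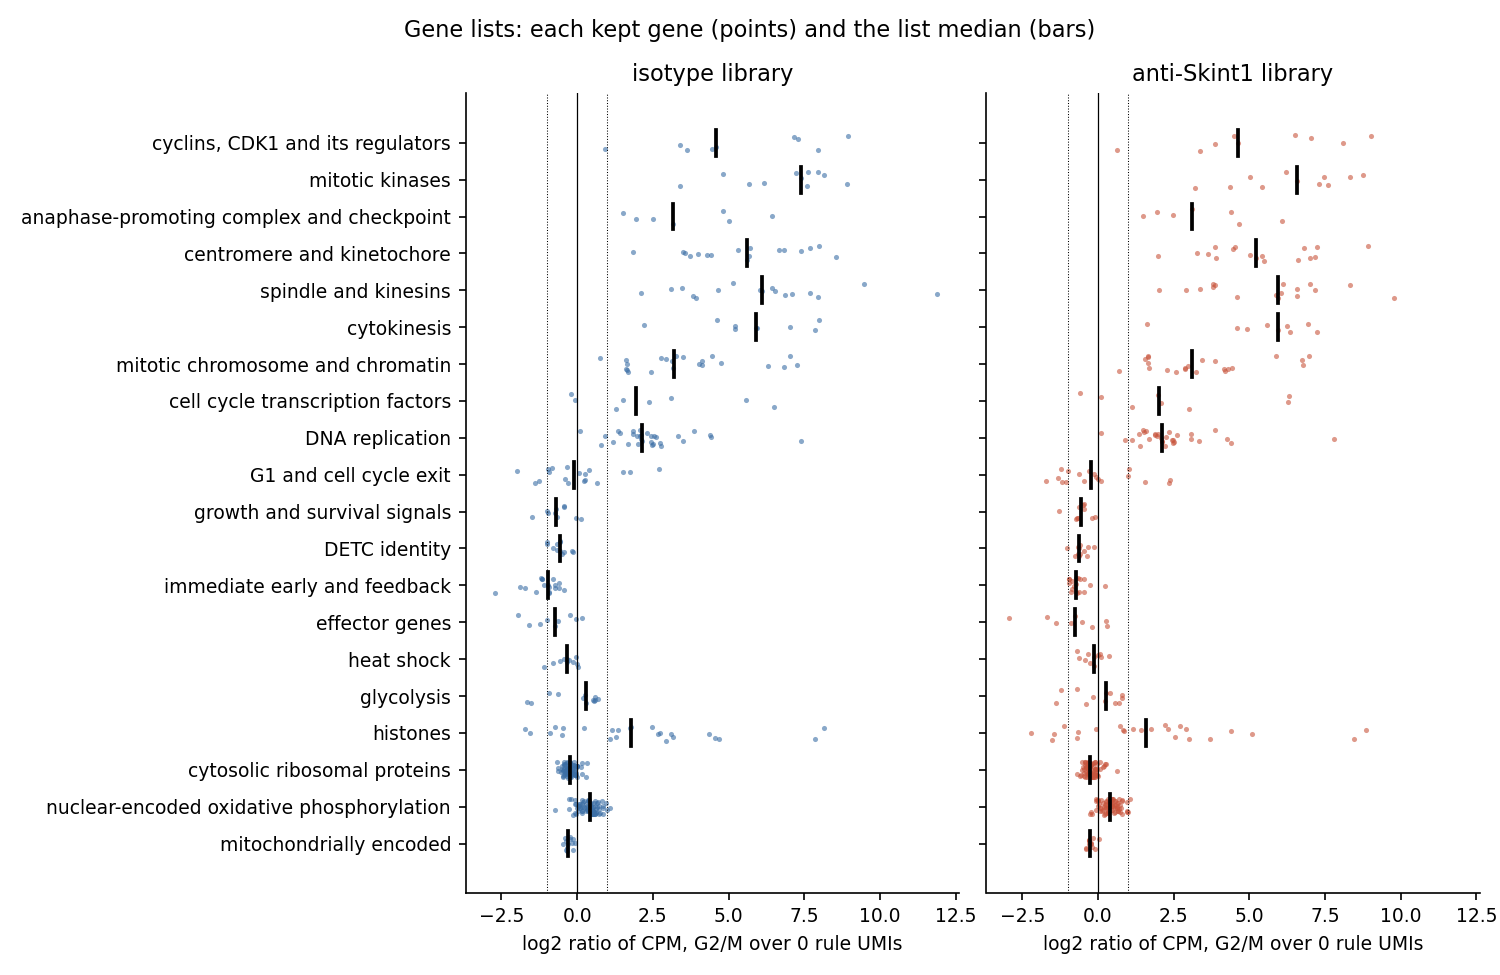
Log2 ratio of CPM in G2/M over rule-negative DETCs for each kept gene (points, with vertical jitter) of 20 lists in each library; black bars are list medians and dotted lines mark 2-fold. The mitotic lists lie right of 0, the median of the oxidative phosphorylation list lies at 0.42 and 0.38, and the medians of the immediate early and effector lists lie left of 0.

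Regulators of the G1 phase did not move as a group. Of 18 kept genes, 3 and 4 were at least 2-fold higher and 3 and 5 at least 2-fold lower. Ccnd2 (cyclin D2, which acts in G1) stood at 291 CPM (262 to 322) and 361 CPM (327 to 398) in G2/M DETCs against 1149 and 1190.4 CPM in rule-negative DETCs, log2 ratios of -1.98 and -1.72. Ccnd3 (cyclin D3) had log2 ratios of 0.25 (0.01 to 0.49) and 0.09 (-0.16 to 0.33). Btg1, an antiproliferative gene of resting lymphocytes, stood at 977 and 980.2 CPM against 2554 and 2452 CPM. The CDK inhibitor Cdkn2c (p18) was higher, with log2 ratios of 2.71 and 2.38, as was Ccne2 (cyclin E2) with 1.74 and 2.35, while Cdkn1b (p27) had -0.29 and -0.47. Bcl2, the survival gene, stood at 77.9 and 85.1 CPM against 220.2 and 208 CPM.

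A lower CPM can stand for the same number of molecules in a cell that holds more RNA. Equal UMIs per cell correspond to a log2 ratio of CPM of -1.07 in the isotype and -1.21 in the anti-Skint1 library. Of 5759 genes, 197 (3.42%) and 127 (2.21%) held fewer UMIs per cell in G2/M than in rule-negative DETCs. Ccnd2, Btg1 and Bcl2 lay below that line in both libraries. Against rule-negative DETCs of like depth, those with at least 6935 and 6681 UMIs (262 and 315 cells), the ratios were -1.83 and -1.63 for Ccnd2, -1.02 and -0.86 for Btg1, and -1.44 and -1.09 for Bcl2.

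Genes induced by TCR and growth factor signals mostly had log2 ratios of CPM below 0. Of 18 kept immediate early and feedback genes, 8 in the isotype and 0 in the anti-Skint1 library were at least 2-fold lower, beside 4.13% and 4.12% of all kept genes. The medians were -0.95 and -0.72, a difference between libraries that was not tested. Both lie above the lines of equal UMIs per cell (-1.07 and -1.21), as does the lowest ratio of the list in the anti-Skint1 library, -0.97. Fos stood at 1439 CPM (1373 to 1507) and 1893 CPM (1812 to 1975) in G2/M DETCs against 3687 and 3651 CPM in rule-negative DETCs, log2 ratios of -1.36 and -0.95. Egr1 stood at 93.1 and 215 CPM against 308 and 397 CPM, and Dusp1, a phosphatase of MAP kinases, at 387 and 491 CPM against 883 and 892 CPM. Junb had log2 ratios of -0.80 and -0.78, and Nr4a1 of -0.92 and -0.86, which shows closer values in the libraries than Egr3 with -2.71 and -0.45 and Atf3 with -1.89 and -0.26. Against rule-negative DETCs of like depth, Fos had -1.11 and -0.61. Among cells with at most 2500 genes the ratios lay nearer to 0, at -0.39 and -0.65 for Fos, -0.23 and -0.54 for Junb, and 0.11 and -0.12 for Nr4a1, whose direction in the isotype library was then the opposite one.

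Effector and identity genes of DETCs were present, with log2 ratios of CPM mostly below 0 and mostly under 2-fold. Prf1 (perforin) stood at 212 CPM (188 to 239) and 196 CPM (170.3 to 223) against 641 and 629 CPM, log2 ratios of -1.59 and -1.69, and of -1.30 and -1.24 against rule-negative cells of like depth. Areg (amphiregulin, a growth factor for epithelium) stood at 152 and 215 CPM against 588 and 554 CPM, log2 ratios of -1.95 and -1.37. Cd7, a surface protein of T cells, stood at 1303 and 1504 CPM against 2631 and 3062 CPM, which is close to equal UMIs per cell by the lines above. Of 9 kept effector genes 3 were at least 2-fold lower in each library and none was higher, and of 12 identity genes Cd7 alone passed 2-fold. Cd7 did not pass against rule-negative cells of like depth, at -0.62 and -0.63, or among cells with at most 2500 genes, at -0.69 and -0.80. Among 10 kept genes of growth and survival signals 2 and 1 were at least 2-fold lower, beside 4.13% and 4.12% of all kept genes, too few to describe the list.

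Most metabolic genes stayed under 2-fold in either direction. Of 12 kept glycolysis genes, Hk2 (hexokinase 2) and Aldoa (aldolase A) were at least 2-fold lower in both libraries, with log2 ratios of -1.51 and -1.21 for Hk2 and of -1.67 and -1.37 for Aldoa. Among cells with at most 2500 genes Hk2 had -1.42 and -0.85 and Aldoa -0.97 and -0.86. Against rule-negative DETCs of like depth Hk2 had -1.30 and -0.82 and Aldoa -1.55 and -1.24. No kept glycolysis gene was at least 2-fold higher, and Gapdh stood at 861 and 898 CPM against 532 and 517 CPM, under 2-fold. Hilpda, a lipid droplet protein induced by low oxygen, stood at 78.7 and 95.9 CPM against 296 and 295 CPM. The median over 78 nuclear genes of oxidative phosphorylation was 0.42 and 0.38, and over 80 ribosomal protein genes -0.24 and -0.26. Heat shock genes had medians of -0.34 and -0.14, and the 13 mitochondrially encoded genes of -0.29 and -0.25.

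Outside the lists, the highest ratios, ranked by the library nearer to 0, were also of cell cycle genes. Pimreg stood at 178 and 120.4 CPM against 0.327 and 0.105 CPM, Esco2 (which acetylates cohesin in S phase) at 154 and 136 CPM against 0.327 and 0.471 CPM, and Pclaf, a partner of Pcna, at 674 and 796 CPM against 8.51 and 6.55 CPM. Depdc1a, Cdca3, Sapcd2, Mxd3, Neil3, Troap and Kif14 completed the 10 that were named by rule. The lowest were Rrad, Kdm7a, Pik3ip1, Abhd14b, Nabp1, Kdm5b, Slc32a1, Hilpda, Phf1 and Gm26614. Rrad, a small GTPase, stood at 15.1 and 16.3 CPM against 83.1 and 81.7 CPM, and Pik3ip1, an inhibitor of PI3 kinase, at 24.7 and 25.3 CPM against 97.4 and 105 CPM. The log2 ratios of Rrad were -2.46 and -2.33, but -1.18 and -0.59 among cells with at most 2500 genes. Those of Pik3ip1 were -1.98 and -2.05, and -2.40 and -1.35 among such cells.

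The G2/M DETCs differed among themselves in their UMIs of genes that act at mitosis. They were split, after the data had been seen, by their UMIs of 4 genes that act at mitosis and took no part in the rule, Ccnb1, Plk1, Aurka and Cdc20. At least 3 such UMIs were held by 64 of 137 (46.7%) and 53 of 121 (43.8%) cells, 1 or 2 by 40 and 31, and none by 33 (24.1%) and 37 (30.6%). The median depth of cells with at least 3 was 9840.0 and 10100.0 UMIs, and of cells with none 7434 and 7651 UMIs, so that depth moved with the split.

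Some replication genes were lowest where late UMIs were most frequent, and others were not. Mcm6, of the replicative helicase, stood at 31.1 and 39.5 CPM in cells with at least 3 late UMIs, at 134 and 121 CPM in cells with 1 or 2, and at 129 and 113 CPM in cells with none. Pcna stood at 160.2 and 165 CPM, 366 and 346 CPM, and 319 and 346 CPM in the same order, and Tyms at 149 and 215, 376 and 418, and 258 and 310.0 CPM. These 3 were lowest where late UMIs were most frequent, in both libraries. Rrm2 was lowest there in the anti-Skint1 library only, and in the isotype library it was lowest in cells with none, with 652 and 653 CPM, 1091 and 860.2 CPM, and 533 and 686 CPM in the same order. The summed replication list was highest in cells with 1 or 2 late UMIs, at 3409 and 3556 CPM, 7387 and 6645 CPM, and 4778 and 6069 CPM in that order. Cenpa went the other way, with 790.1 and 634 CPM in cells with at least 3 and 117 and 139 CPM in cells with none. Tpx2 stood at 439 and 416 CPM against 92.8 and 98.5 CPM, Cks2 at 624 and 607 CPM against 125 and 94.8 CPM, and Hmgb2 at 6439 and 6391 CPM against 2486 and 2619 CPM. Fos stood at 1135 and 1657 CPM in cells with at least 3 late UMIs, at 1293 and 2468 CPM in cells with 1 or 2, and at 2441 and 1871 CPM in cells with none, so that the libraries differed in which class was highest.

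**Figure D4:**
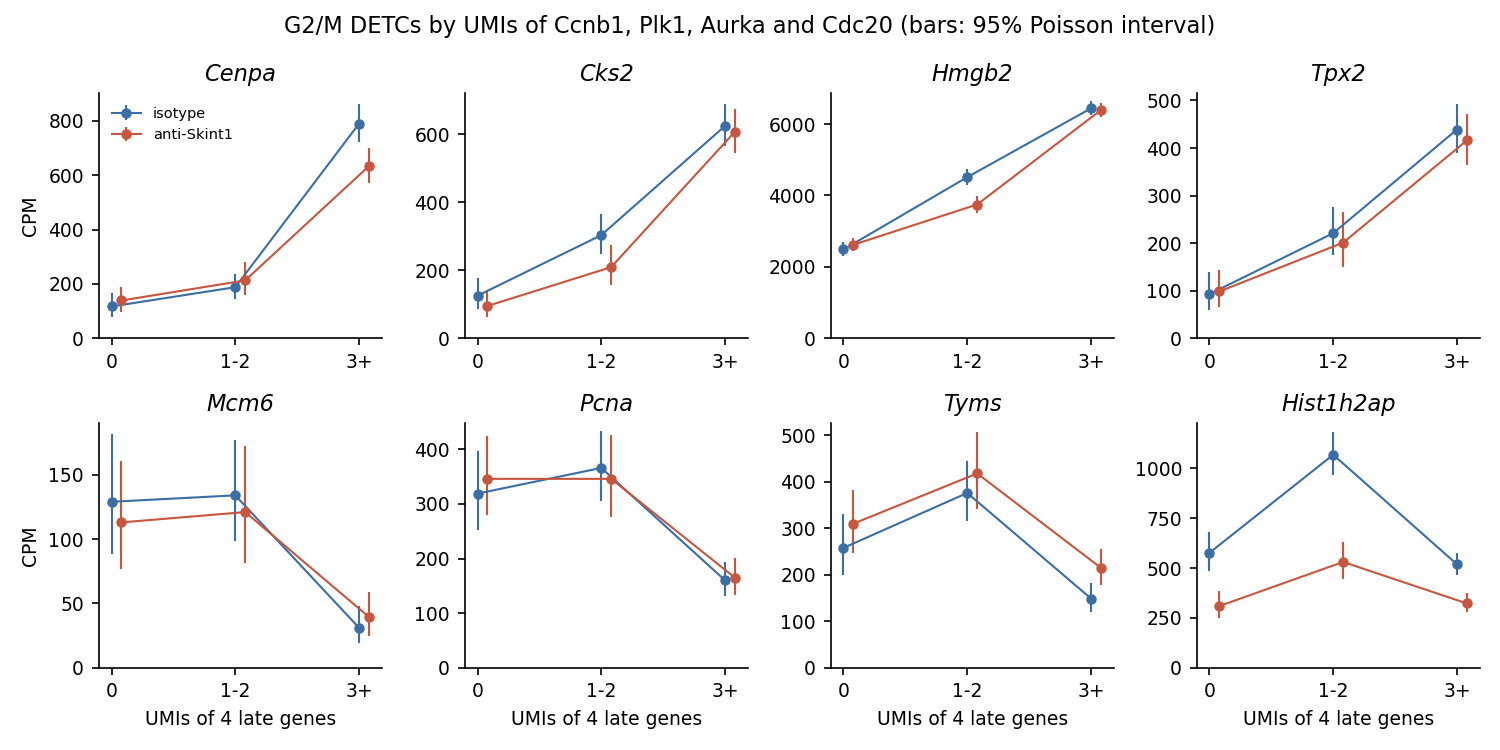
CPM of 8 genes in G2/M DETCs with 0, 1 to 2, or at least 3 UMIs of Ccnb1, Plk1, Aurka and Cdc20, for the isotype (blue) and anti-Skint1 (red) library with 95% Poisson intervals. Cenpa, Cks2, Hmgb2 and Tpx2 rise from left to right, Mcm6, Pcna and Tyms are lowest at the right, and Hist1h2ap is highest in the middle.

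Between treatments, few kept genes passed 2-fold in G2/M DETCs, and the summed mitotic and replication lists had log2 ratios near 0. Of 5759 genes, 31 (0.538%) were at least 2-fold higher and 34 (0.590%) at least 2-fold lower in anti-Skint1 than in isotype G2/M DETCs, against 6 (0.104%) and 7 (0.122%) among rule-negative DETCs. The sums rest on 1257386 and 1104856 UMIs in G2/M DETCs and on 15280218 and 19095493 UMIs in rule-negative DETCs, so that counting error is larger in the former. None of the 92 kept mitotic and 31 kept replication genes was among the 31 and 34 genes of G2/M DETCs. With shares of 0.538% and 0.590% over all genes, that count says little about these lists. The summed log2 ratio was -0.19 (-0.31 to -0.07) for mitotic kinases, -0.18 (-0.27 to -0.09) for cyclins, CDK1 and its regulators, -0.10 (-0.13 to -0.07) for mitotic chromosome genes and 0.01 (-0.04 to 0.06) for replication genes. Ccnb1 had the value -0.78, with 122 CPM (104 to 143) in the isotype and 71.5 CPM (56.6 to 89.1) in the anti-Skint1 library. Hist1h2ap stood at 691 and 367 CPM, a log2 ratio of -0.91 (-1.09 to -0.74), beside -0.54 in rule-negative DETCs.

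Ptpn6, the phosphatase SHP-1 that dampens TCR signals, had a ratio between libraries near 0 in G2/M DETCs and below 0 in the other classes of DETC. It stood at 129 CPM (109.8 to 150.3) in isotype and 134 CPM (113 to 157) in anti-Skint1 G2/M DETCs, a log2 ratio of 0.06 (-0.28 to 0.39). In rule-negative DETCs it stood at 157 and 79.2 CPM, a log2 ratio of -0.99 (-1.08 to -0.89). The ratio was -0.71 in DETCs with 1 to 3 rule UMIs, -0.54 in DETCs with replication transcripts and -0.74 in rule-negative DETCs of like depth. Among G2/M DETCs with at most 2500 genes it was 0.81 (-0.15 to 1.83), from 15 and 27 UMIs. The intervals of G2/M and rule-negative DETCs do not overlap, but they hold counting error only and no spread between cells. That of DETCs with replication transcripts, -0.78 to -0.29, ended next to that of G2/M DETCs. With 1 library per treatment the difference between classes could not be tested.

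Single cells moved the ratio between treatments of Xcl1 and, to a lesser extent, of Egr1. Egr1 stood at 93.1 CPM (77.0 to 112) in isotype and 215 CPM (188 to 244) in anti-Skint1 G2/M DETCs, a log2 ratio of 1.20 (0.88 to 1.54) that was 0.85 (0.50 to 1.21) without the cell of each library with most of its UMIs and 0.77 (0.41 to 1.13) without cells with markers of other lineages. It was 0.37 in all rule-negative DETCs, 0.02 in those of like depth and -0.32 in DETCs with replication transcripts. Xcl1, a chemokine for dendritic cells, stood at 292 and 119 CPM, a log2 ratio of -1.29. One isotype cell held 60.8% of its UMIs there, and without the top cells the ratio was -0.25 (-0.62 to 0.12). In rule-negative DETCs it was -1.64 (-1.72 to -1.56), and -0.97 in those of like depth. It was -1.26 in DETCs with replication transcripts and -0.60 in DETCs with 1 to 3 rule UMIs. Among G2/M DETCs it was -3.33 with at most 2500 genes, 0.05 with more, and 0.32 with at most 5% mitochondrial UMIs.

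Of the granzyme genes, Gzmc passed 2-fold between treatments with and without the top cells, while the ratio of Gzmb rested on 1 cell. The TCR gene Trgv2 stayed under 2-fold. Gzmc (granzyme C) held 119 UMIs in isotype and 19 in anti-Skint1 G2/M DETCs, 94.6 and 17.2 CPM, a log2 ratio of -2.46 (-3.24 to -1.75) that was -2.21 without the top cells. With at most 2500 genes per cell it was -4.62 (-7.70 to -2.69), from 48 and 2 UMIs. It was 0.17 (0.01 to 0.33) in DETCs with 1 to 3 rule UMIs, -2.61 in DETCs with replication transcripts, 0.12 in rule-negative DETCs of like depth and -0.76 in all rule-negative DETCs. Gzmb (granzyme B) had a ratio of -1.49, but 1 isotype cell held 72.9% of its UMIs, and without the top cells it was 0.02. Trgv2 (a TCR γ variable gene) stood at 68.4 and 128 CPM, a ratio of 0.90 (0.50 to 1.30), beside 0.56 in rule-negative DETCs. Among G2/M DETCs with at most 2500 genes its ratio was 0.03 (-0.88 to 0.94), from 22 and 23 UMIs, and among those with more it was 1.12 (0.67 to 1.58). Among genes with at least 50 CPM in the mean of both libraries of G2/M DETCs, the 8 highest and 8 lowest ratios between treatments were named. Of the 8 highest, 6 (Lgals7, Il22, Krt15, Krt5, H2-Ab1 and Cd74) had more than 50% of their UMIs in a single cell of a library, and of the 8 lowest, Xcl1 and Gzmb. Nap1l5, Mapk6 and Tob2 were also among these 8 lowest, with ratios of -1.07, -0.96 and -1.06, and like Gzmc they passed 2-fold without the top cells.

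**Figure D5:**
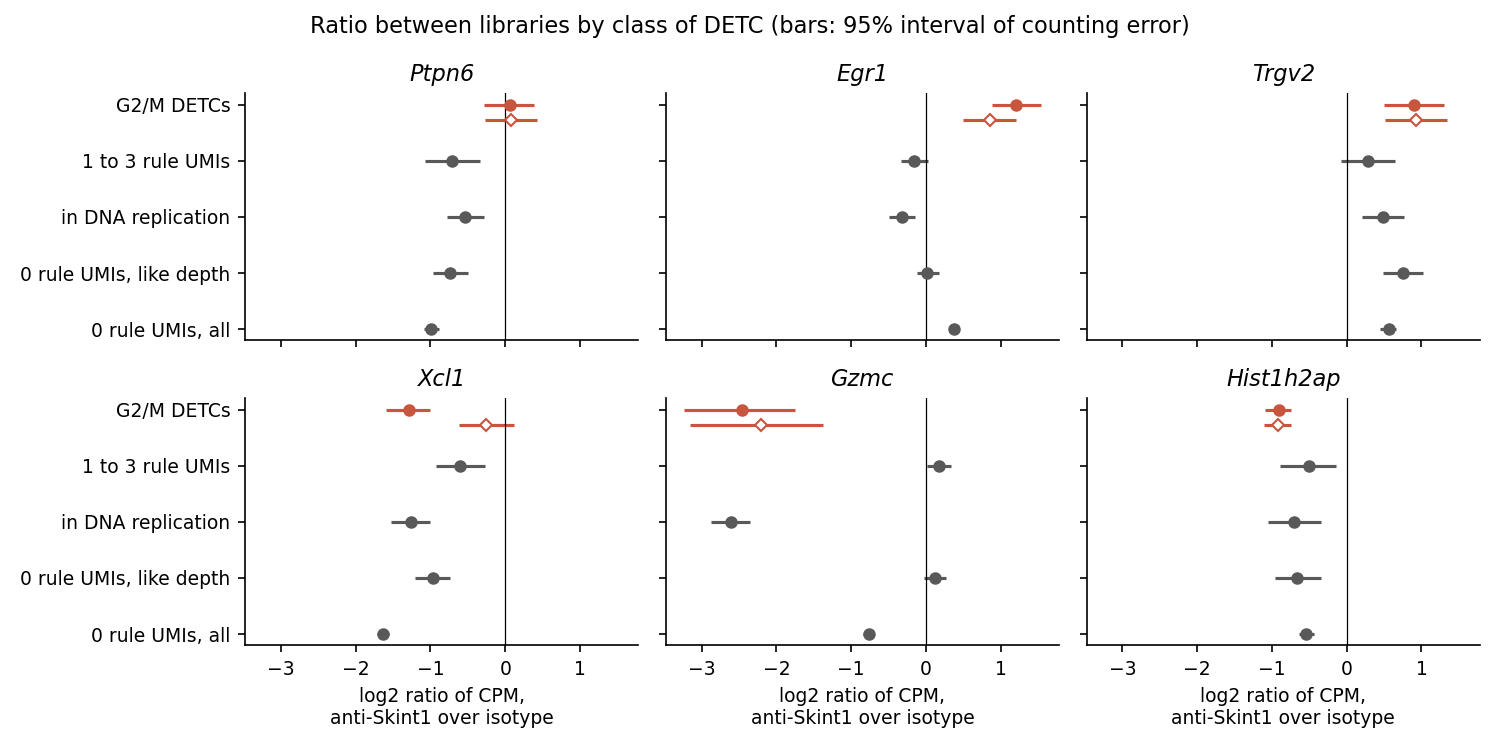
Log2 ratio of CPM, anti-Skint1 over isotype, of 6 genes in 5 classes of DETC with 95% intervals of counting error; open diamonds leave out the G2/M DETC of each library with most UMIs of the gene. Ptpn6 lies at 0 in G2/M DETCs and left of 0 in the other classes, and Xcl1 moves to -0.25 without its top cells.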

How the data were processed

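Single-cell 3′ RNA-seq libraries, 1 per treatment, were read as the count matrices that the authors deposited, made with Cell Ranger 3.0.2 on mouse build mm10 (GRCm38). These deposited counts are whole numbers of UMIs, unfiltered over barcodes, and sum to 27272211 and 32450957. Counts depend on poly(A) capture near the 3′ end and were not normalized before deposit.

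Cells were barcodes with at least 500 genes and no upper limit, and with mitochondrial UMIs at 12% or less, whereas the study's methods removed cells above 2500 genes. The rule genes, the cells and the gene lists were chosen with earlier results of these data known. CPM are the summed UMIs of a gene over those of all genes, within a class of cells in a library. Genes with a mean of at least 20 CPM over the 4 sums were kept, and a fold of 2 stood in for a test. Levels have exact Poisson intervals, ratios exact conditional binomial intervals, shares Clopper-Pearson intervals and differences of shares Newcombe intervals. In a ratio a floor of 3 UMIs replaced a sum of 0, and no ratio was formed where a sum was 0 and the other was at or under the floor. The rows of 36 symbols that occur 2 times were not merged. Python 3.11.15, numpy 2.4.6, scipy 1.17.1, pandas 2.3.3 and matplotlib 3.10.9 were used, and cells were thinned with the random seed 11. No column of another series was met.

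Named genes were, in each list, the 4 highest in level and the 2 lowest in ratio, outside the lists the 10 highest and 10 lowest ratios, ranked by the library nearer to 0, and between treatments the 8 highest and 8 lowest among genes with at least 50 CPM in the mean of both libraries. Ptpn6, Egr1, Trgv2 and the split by late genes were chosen after the values were seen, as were other genes named for their role. Counts of 5602 genes for the isotype comparison were simulated as Poisson sums over a class, without spread between cells. There 100 of 100 genes raised 4-fold and 99 of 100 lowered 4-fold passed 2-fold, as did 6 of 5402 unchanged genes. Of the intervals 96.2% held the true ratio, which says nothing of genes whose UMIs lie mostly in single cells. Doublets were not called. Alternatives changed the filters on cells and genes, the rule, the depth and the scaling.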

Additional observations from a re-analysis of the deposited data

Results flagged for a closer look

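The 5 genes below, of the treatment comparison, went one way in G2/M DETCs and the other way in all rule-negative DETCs, which does not make them particular to G2/M DETCs. The difference between these classes was not tested, since each treatment has 1 library. Atf3, a stress-induced transcription factor, had a log2 ratio of anti-Skint1 over isotype of 1.17 in G2/M DETCs and -0.46 in rule-negative DETCs, and 0.51 in G2/M DETCs without the cell of each library with most of its UMIs. Without cells with markers of other lineages it was 0.32 (-0.16 to 0.80), and in rule-negative DETCs of like depth 0.07 (-0.10 to 0.24). Il22 had 1.77 and -0.38, and 1.32 without those cells. Its ratio had the direction of G2/M DETCs in DETCs with replication transcripts, at 1.28 (0.83 to 1.75), and in rule-negative DETCs of like depth, at 0.46 (0.18 to 0.74). Cd74, the invariant chain of MHC class II, had 3.13 and -0.70, and -1.89 without those cells, so that its direction rested on 1 cell. It was 2.45 in DETCs with replication transcripts and -1.21 in rule-negative DETCs of like depth, and without cells with markers of other lineages it was 0.23 (-0.16 to 0.63) in all rule-negative DETCs. H2-Ab1, of MHC class II, had 5.52 and -0.43, and without the top cells the isotype library held 2 of its UMIs and the anti-Skint1 library 0. Krt15, a keratin of basal keratinocytes, had 1.19 and -0.62, and without those cells it held 1 UMI in the isotype and 5 in the anti-Skint1 library, a ratio of 2.53 (-0.62 to 8.10). Without cells with markers of other lineages each library held 1 UMI of it, and the ratio in rule-negative DETCs was 0.68 (-0.34 to 1.76).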

How the results depend on the processing

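The study's limit of 2500 genes left shares of 1.07% and 0.789% with a difference of -0.284 points, and at most 5% mitochondrial UMIs gave 6.31% and 4.24% with -2.07 points. The limit leaves out most G2/M DETCs by construction, and for 5% the cause was not tested. Genes at least 2-fold lower were then 360 and 483 with the 2500-gene limit, and 413 and 437 in cells thinned to 2000 UMIs. Genes past 2-fold between treatments within G2/M DETCs were 330 higher and 627 lower with the 2500-gene limit, 64 and 93 with at most 5% mitochondrial UMIs, and 259 and 398 in thinned cells, where fewer UMIs entered. With a minimum of 50 CPM, 275 and 278 genes were higher and 107 and 92 lower, 18 and 19 of them replication genes among the higher, and 7 and 5 differed between treatments. With every gene that had a UMI in both groups, 1974 and 2060 were higher, 1139 and 1043 lower, and 756 and 644 differed between treatments. Against rule-negative DETCs of like depth, 18 replication genes were higher in the anti-Skint1 library. Leaving out cells with markers of other lineages, which was chosen after seeing the data, left 18 genes higher between treatments. Ratios past 2-fold that changed sign were Gzmc in isotype G2/M over rule-negative DETCs (0.19 with the 2500-gene limit), and between treatments Cd74 (-2.03 with that limit, -1.91 without other-lineage cells, -1.89 without the top cells), Xcl1 (0.32 at 5% mitochondrial UMIs) and Gzmb (0.78 at 5%, 0.02 without the top cells). For like depth, 5% mitochondrial UMIs and Gzmc the cause was not tested. Of 2304 log2 ratios over 144 genes in G2/M over rule-negative DETCs, 1711 stayed within their interval, 592 moved and 1 past 2-fold (Gzmc) changed sign, and between treatments 181 of 235 stayed. Ratios under 2-fold changed sign in 53 and 3 of these values, among them Trdc (-0.15 and -0.14, but 0.20 and 0.10 against cells of like depth), Nr4a1 in the isotype library (-0.92, but 0.11 with the 2500-gene limit) and Ptpn6 between treatments (0.06, but -0.15 in thinned cells, while the 2500-gene limit gave 0.81). No paired analysis was possible because each treatment has 1 library. Depth limits the rare transcripts, since G2/M DETCs are 137 and 121 cells.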
